A study of Mus musculus with 30 samples.

Results

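The genes described here encode the proteins of the mitochondrial ribosome, and they were followed in mouse gastrocnemius muscle after a long chronic jet lag. They were chosen by name, as every gene whose symbol is Mrpl or Mrps followed by a number and at most 1 letter. Earlier results of these data were known when this name rule was chosen. Of the 56951 gene symbols measured, 78 had such a name, 49 of them Mrpl symbols and 29 of them Mrps symbols. All 78 passed the filter on low values (on average more than 20 reads per library and more than 0.5 FPKM), so that all 78 stood among the 12030 genes tested. FPKM is the number of fragments scaled by exon length and by the total of the library, and it is the scale on which genes of different length are compared below.

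Mitochondria carry a ribosome of their own, which translates the few mRNAs encoded by mitochondrial DNA, all of them for subunits of the respiratory chain and the ATP synthase. Its rRNAs come from mitochondrial DNA, while every one of its proteins is encoded in the nucleus, made in the cytosol and imported. Most Mrpl symbols name proteins of the large subunit and most Mrps symbols proteins of the small subunit, with the exceptions given below. Some of these proteins have a bacterial counterpart and others occur in the mitochondrial ribosome alone. Skeletal muscle depends on them because its oxidative fibers are rich in mitochondria.

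Poly(A)-enriched stranded RNA was sequenced from the gastrocnemius muscle with the attached plantaris, of wild-type male C57BL/6J mice, 1 library per mouse. All mice were 14 weeks old at the start, lived singly with a running wheel and had spent a period in constant darkness before the schedules began. The LD group (14 mice) then stayed for 64 weeks on a cycle of 12 h of light and 12 h of darkness, and the ADV group (16 mice) had that cycle advanced by 8 h every 4 days for the same 64 weeks. The comparison asked which transcripts of aged muscle differed after chronic jet lag. According to the study, tissue was taken over several hours of the light period, when ADV mice had the same light hours as LD mice. The hour at which each mouse was killed is not in the labels.

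Reads on exons numbered 18875468.5 to 28512674 per library, and each of the 78 genes had a mean of 253.47 to 3355.1 reads in them. The 9 fast muscle markers were at mean levels of 1430 to 19600 FPKM, so the defining markers of the labelled tissue were present. Libraries ADV 34 and ADV 25 stood apart from the rest. The share of reads that fell on exons was 92.671% in ADV 34 and 92.043% in ADV 25, against 91.139 to 91.733% in the other ADV libraries and 90.908 to 91.299% in the LD libraries. The slope of log2 levels on transcript length was -0.2219 per doubling of length in ADV 34 and -0.1061 in ADV 25, and it lay between -0.04456 and 0.0503 in all others. The counts of members are therefore also given without these libraries, in all, by class and by name of the members whose call was lost.

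Promoters of nuclear genes for mitochondrial proteins are known for binding sites of NRF1, of the ETS factor GABP and of YY1. The short motifs GCATGCGC (NRF1), CCGGAAG (ETS) and AAGATGG (YY1) were searched on both strands from 250 bases before to 50 bases after the start of the counted transcript, and the last letters of the ETS motif may also be the first of the YY1 motif. That start can differ from the main start site of the gene in muscle, so the windows may miss part of a promoter. The ETS motif was in 30 of the 78 windows (38.5%) and in 17.3% of the windows of all genes tested. The NRF1 motif was in 8 (10.3%, against 5.1%) and the YY1 motif in 14 (17.9%, against 7.5%), and 51.3% of the 78 held at least 1 of these motifs, against 27% of all. The 100 bases before the start are shown, from GRCm39 and 5′ to 3′ on the strand of the gene, for 4 genes described below as higher in ADV mice and for Mrps18b, which did not pass the test; capitals mark the motifs. Mrpl14 had none of the motifs, Mrpl43 and Mrps34 had the ETS motif, Mrps28 had the NRF1 motif and Mrps18b had both. They lie at chr17:45997148-45997247 on the plus strand (Mrpl14), chr19:44994882-44994981 on the minus strand (Mrpl43), chr17:25113990-25114089 on the plus strand (Mrps34), chr3:8988979-8989078 on the minus strand (Mrps28) and chr17:36227282-36227381 on the minus strand (Mrps18b).
Mrpl14: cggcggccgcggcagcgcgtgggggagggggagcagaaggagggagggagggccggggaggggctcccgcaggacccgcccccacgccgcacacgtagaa
Mrpl43: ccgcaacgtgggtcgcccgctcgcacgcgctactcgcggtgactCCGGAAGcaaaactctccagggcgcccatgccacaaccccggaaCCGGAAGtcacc
Mrps34: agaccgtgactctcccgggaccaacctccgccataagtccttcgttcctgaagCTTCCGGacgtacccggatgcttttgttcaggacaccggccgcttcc
Mrps28: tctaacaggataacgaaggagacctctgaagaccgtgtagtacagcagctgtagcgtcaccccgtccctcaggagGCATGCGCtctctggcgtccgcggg
Mrps18b: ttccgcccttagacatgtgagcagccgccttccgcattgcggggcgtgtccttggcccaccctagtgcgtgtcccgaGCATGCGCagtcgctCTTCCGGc

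The transcripts of the mitochondrial ribosome were present at unequal levels in muscle. Mean levels over all mice ran from 3.2 FPKM for Mrps25 to 211 FPKM for Mrpl42, a 66-fold range, with a median of 18.83 FPKM against 4.84 FPKM for all genes tested. Mrpl42, a mitochondria-specific protein of the large subunit, was the most abundant, at 205 ± 19.8 FPKM (SD, n = 14) under LD and 217 ± 18.4 FPKM (n = 16) under ADV. Mrps21 and Mrpl33, which have bacterial counterparts, followed at 85 ± 4.4 and 69.6 ± 6.66 FPKM in LD mice. At the other end were Mrps25 (3.1 ± 0.269 FPKM in LD mice), Mrps35 (3.58 ± 0.472 FPKM) and Mrpl19 (3.72 ± 0.431 FPKM). The spans of Mrps35 and Mrpl19 over LD mice, 2.55 to 4.24 and 2.89 to 4.19 FPKM, overlapped almost wholly, whereas the lowest mouse of either group for Mrpl42, at 163 FPKM, lay above the highest for Mrps21, at 137 FPKM. In FPKM the shortest transcripts were among the highest, with a median of 31.8 FPKM for the 26 members under 1000 bases. The median was 19.3 FPKM for the 27 of 1000 to under 2000 bases and 6.95 FPKM for the 25 of 2000 bases or more. FPKM divides reads by the exon length of the counted transcript, so this order depends on that length. Mrps25 (6066 bases, 513 of them coding) had a mean of 475.55 reads, and Mrps18c (627 bases, 22.1 FPKM) had 338.73. Whether muscle uses shorter forms of the long transcripts was not tested. Mrpl33 shares 37.0% of its exon bases with another annotated transcript on the same strand, and its level is uncertain to that extent.

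**Figure D1:**
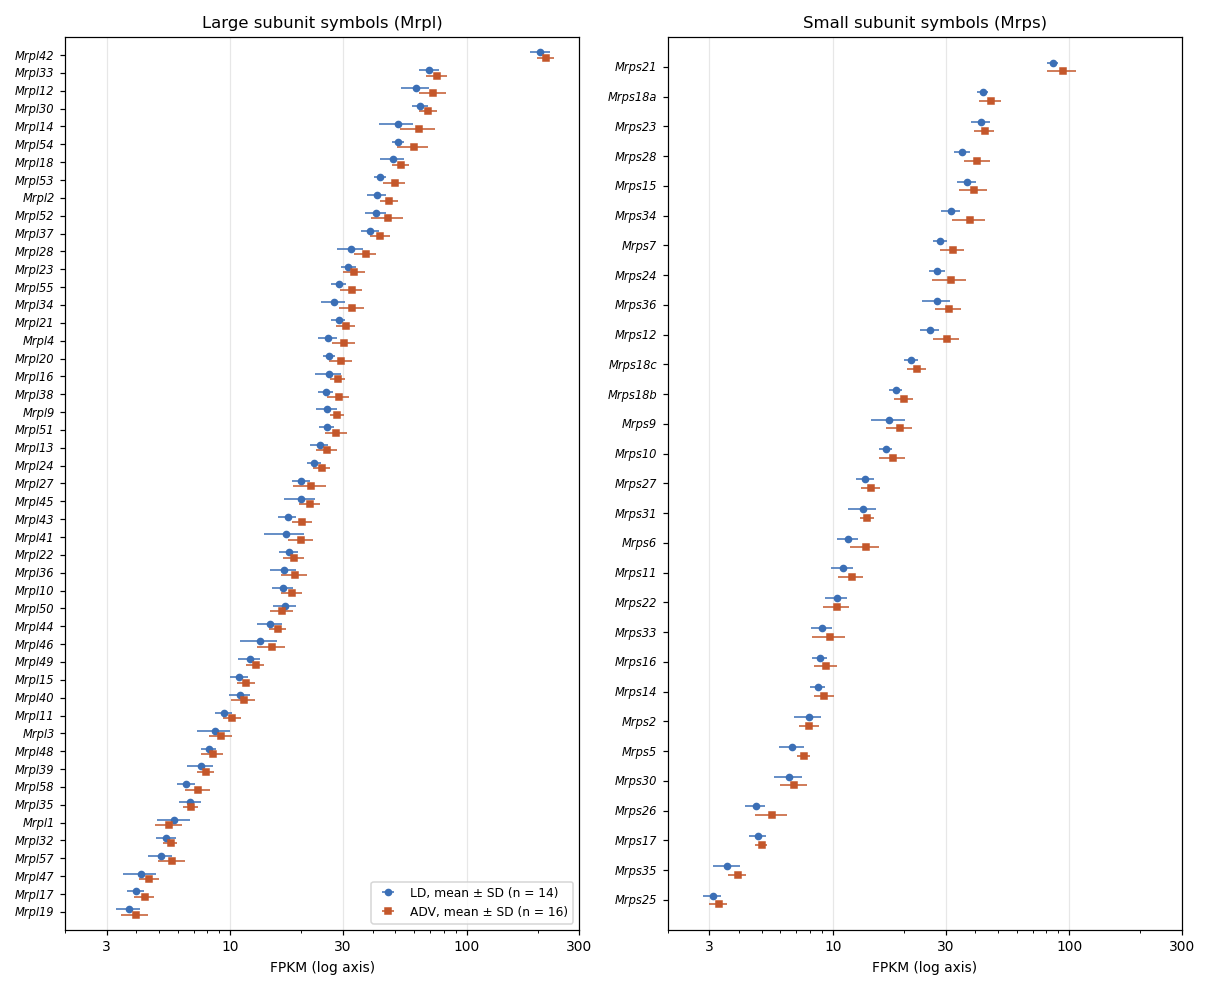
Mean FPKM (log axis) of each of the 78 genes in LD mice (circles, n = 14) and ADV mice (squares, n = 16), with SD as bars, for the Mrpl symbols on the left and the Mrps symbols on the right. Mrpl42 stands above all others, with means of 205 and 217 FPKM, and in most genes the ADV mean lies slightly to the right of the LD mean.

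Of the 78 genes of the mitochondrial ribosome, 19 rose in ADV mice and 0 fell. In edgeR's quasi-likelihood test the 19 (24.4%) were higher at an FDR under 0.05, with p-values adjusted over the whole table (Benjamini-Hochberg). Of all genes tested, 5.74% were higher and 5.12% lower. DESeq2 called 20 higher, the same 19 and 1 more, where it called 7.25% of all genes higher, and neither tool called a member lower. At an unadjusted edgeR p under 0.05 the numbers were 41 higher and 0 lower, beside 1836 higher and 1779 lower among the 12030 genes tested. Fold changes were small, from 1.11 to 1.22 among the 19, so 0 members reached the fold change of 1.3 that the study also required, against 1.45% of all genes tested that did so upwards. The fitted log2 fold change was above 0 for 73 of the 78, with a median of 0.106 and a middle range of 0.07 to 0.158, and the median of all genes tested was 0.003. By symbol, 12 of 49 Mrpl genes (median log2 fold change 0.114) and 7 of 29 Mrps genes (median 0.094) were higher. The LD and ADV mice overlapped in every one of the 78 genes, as in nearly all genes tested, of which 0.00831% did not overlap. For 14 of the 19 the FDR stayed under 0.05 whichever library was left out.

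**Figure D2:**
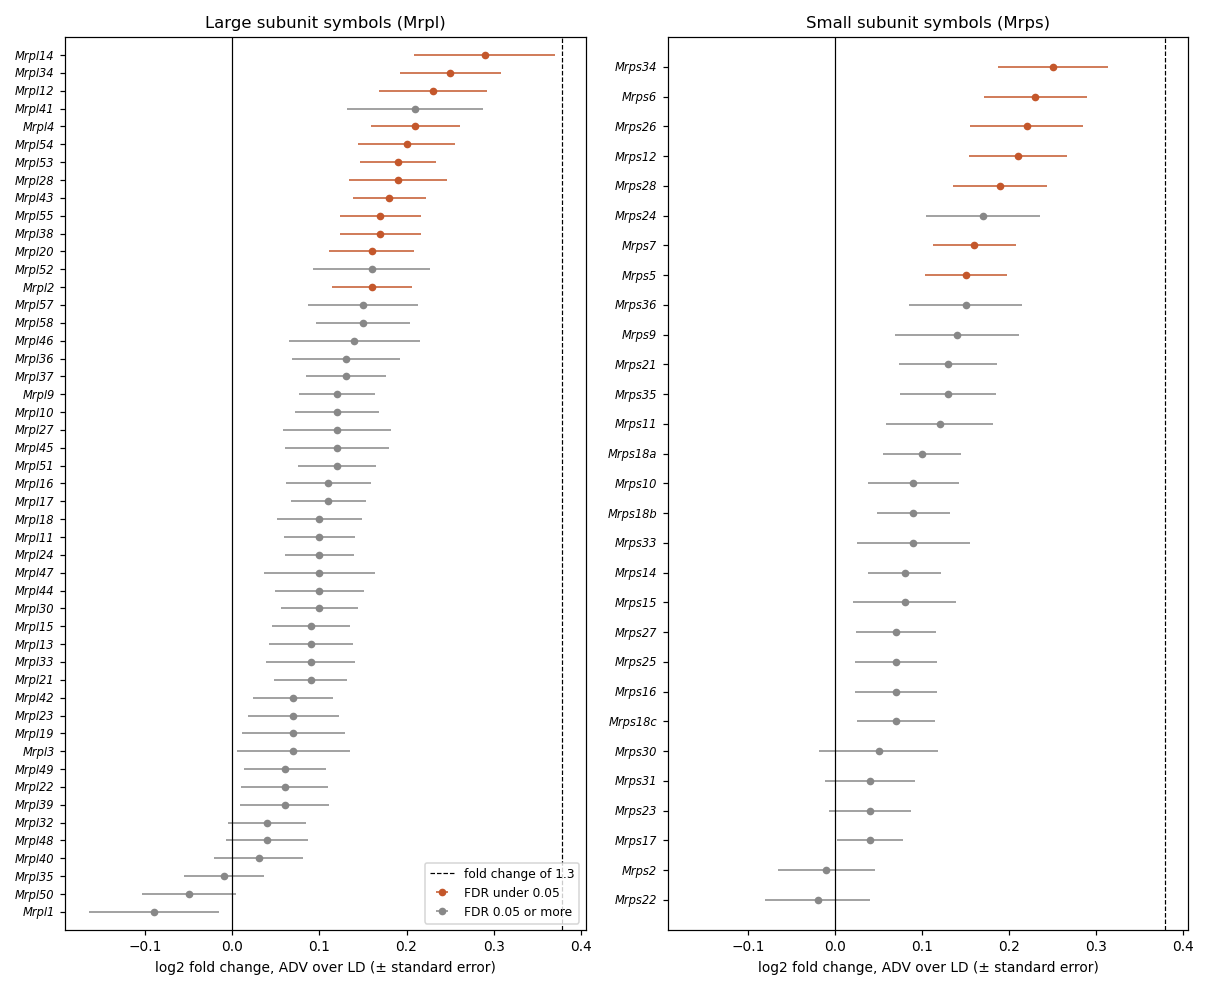
Log2 fold change of ADV over LD mice with its standard error for each of the 78 genes, large subunit symbols on the left and small subunit symbols on the right. Points to the right of the solid line at 0 were higher in ADV mice, the 19 coloured ones had an FDR under 0.05, and none reached the dashed line at a fold change of 1.3.

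Among the 30 proteins of the large subunit with a bacterial counterpart, 8 rose in ADV mice (26.7%) and 0 fell, with a median log2 fold change of 0.103. Beside this, 5.74% of all genes tested were higher and 5.12% lower. Mrpl14, at the interface with the small subunit, had the largest fold change of all members. Its FPKM was 33.9, 52.8 and 61.3 (lowest, median and highest) in LD mice and 45.1, 60.1 and 88.5 in ADV mice (log2 fold change 0.29 ± 0.081, SE, edgeR FDR = 0.0217). Above the highest LD mouse lay 7 ADV mice and 3 LD mice below the lowest ADV mouse. Mrpl34, a very small and basic protein, had 21.9, 26.5 and 32.8 FPKM in LD mice and 25.1, 33 and 39.5 FPKM in ADV mice (log2 fold change 0.25 ± 0.058, edgeR FDR = 0.00789). The groups overlapped in Mrpl34 too, with 8 ADV mice above every LD mouse. Mrpl4 lines the tunnel through which the new peptide leaves. It had 22.3, 25.7 and 29.3 FPKM in LD mice and 25.2, 29.3 and 39.2 FPKM in ADV mice (0.21 ± 0.051, edgeR FDR = 0.0105), so that the ADV median equalled the LD maximum to the digits shown.

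Mrpl12 is the counterpart of the bacterial stalk protein that recruits translation factors to the ribosome, and Mrpl10 anchors it there. Mrpl12 had 47.6, 63.2 and 69.6 FPKM in LD mice and 59.4, 69 and 94.1 FPKM in ADV mice (log2 fold change 0.23 ± 0.062, edgeR FDR = 0.0195), and 7 ADV mice exceeded all LD mice. For Mrpl10 the values were 13.6, 16.8 and 18.9 FPKM and 15.4, 18.1 and 21.7 FPKM, which did not pass the test (0.12 ± 0.048, edgeR FDR = 0.101). Mrpl2, Mrpl3 and Mrpl16 lie at or near the site where peptide bonds form. Mrpl2 rose, with a median of 42 FPKM in LD and 46 FPKM in ADV mice (0.16 ± 0.046, edgeR FDR = 0.0282), and Mrpl3 (0.07 ± 0.065, edgeR FDR = 0.456) and Mrpl16 (0.11 ± 0.049, edgeR FDR = 0.131) did not pass. The remaining 3 that rose in this class were Mrpl20, Mrpl28 and Mrpl55, with log2 fold changes of 0.16, 0.19 and 0.17.

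Of the 21 mitochondria-specific proteins of the large subunit, 4 rose (19.0%, beside 5.74% of all genes tested), with a median log2 fold change of 0.118 for the class. Mrpl43 had the smallest FDR of all members. Its FPKM was 15.5, 17.3 and 20.2 in LD mice and 17.8, 19.3 and 24.1 in ADV mice (log2 fold change 0.18 ± 0.042, edgeR FDR = 0.00716), and 8 LD mice lay below the lowest ADV mouse. Mrpl53 had 38.5, 42.8 and 46.4 FPKM in LD mice and 42.3, 49.5 and 64.6 FPKM in ADV mice (0.19 ± 0.044, edgeR FDR = 0.00775). It was the member with the most ADV mice, 11 of 16, above every LD mouse. Mrpl54 (0.20 ± 0.056, edgeR FDR = 0.02) and Mrpl38 (0.17 ± 0.047, edgeR FDR = 0.0218) were the others. Other members of this class did not pass the test, among them the following. Mrpl58, a peptidyl-tRNA hydrolase built into the ribosome, changed by 0.15 ± 0.054 on the log2 scale (edgeR FDR = 0.0663). Mrpl45, which holds the ribosome at the inner membrane, had 0.12 ± 0.06 (edgeR FDR = 0.184), and Mrpl44, which has a fold like that of RNase III, had 0.10 ± 0.051 (edgeR FDR = 0.197).

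Of the 16 proteins of the small subunit with a bacterial counterpart, 5 rose (31.2%) and 0 fell, with a median log2 fold change of 0.123. Among all genes tested 5.74% were higher and 5.12% lower. Mrps12 belongs to the site where codons are read. It had 19.8, 26.2 and 30.6 FPKM in LD mice and 24.9, 30.1 and 40.9 FPKM in ADV mice (log2 fold change 0.21 ± 0.056, edgeR FDR = 0.0167), with 6 ADV mice above every LD mouse. Mrps28 had 29.9, 35.8 and 40.4 FPKM in LD mice and 33.1, 40.4 and 55.2 FPKM in ADV mice (0.19 ± 0.054, edgeR FDR = 0.0211), so the ADV median lay at the LD maximum. Mrps7, which binds the small rRNA, and Mrps5 rose by 0.16 ± 0.048 (edgeR FDR = 0.0314) and 0.15 ± 0.047 (edgeR FDR = 0.0413). Mrps6 had 9.41, 11.5 and 14 FPKM in LD mice and 10.9, 13.4 and 18.6 FPKM in ADV mice (0.23 ± 0.059, edgeR FDR = 0.0119). This value is uncertain, since 52.4% of the exon bases of Mrps6 are shared with Slc5a3 and another annotated transcript on the same strand. In Mrps2, also of this class, the groups did not separate (-0.01 ± 0.056, edgeR FDR = 0.955, 95% interval -0.12 to 0.10).

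The 10 mitochondria-specific proteins of the small subunit had 2 members higher in ADV mice, beside 5.74% of all genes tested, and a median log2 fold change of 0.082. This count rests on few genes, and nothing is read from it about the class. Mrps34 had 27, 31.9 and 36.6 FPKM in LD mice and 30.2, 37 and 53.4 FPKM in ADV mice (log2 fold change 0.25 ± 0.063, edgeR FDR = 0.0117). Above all LD mice were 8 ADV mice, and below all ADV mice were 5 LD mice. Mrps26 was a low transcript, with 3.77, 4.9 and 5.3 FPKM in LD mice and 4.2, 5.57 and 7.63 FPKM in ADV mice (0.22 ± 0.065, edgeR FDR = 0.0281).

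**Figure D3:**
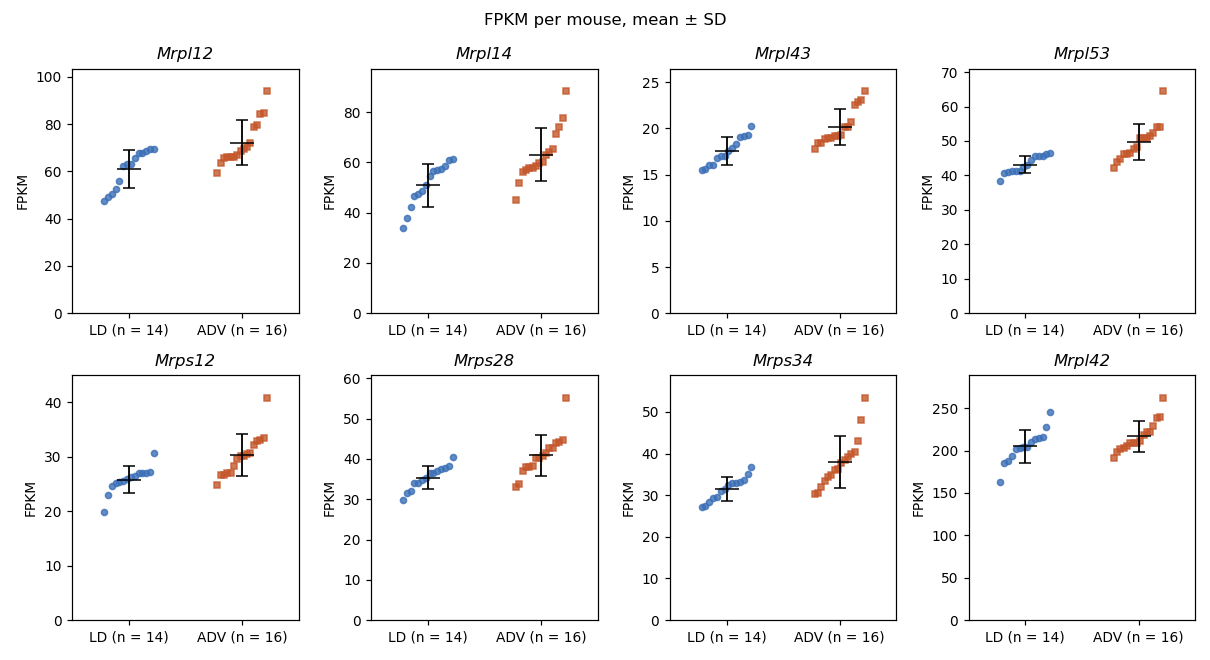
FPKM of 8 genes in each mouse, LD (circles, n = 14) and ADV (squares, n = 16), sorted by value within a group, with mean ± SD in black and axes from 0. In the 7 genes that rose the upper ADV mice exceed the highest LD mouse while the lower part of the ADV group lies within the LD range, and in Mrpl42, the most abundant member, the groups overlap almost fully.

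Mrps18a, Mrps18b and Mrps18c are relatives that belong to different places in the ribosome. Mrps18a sits in the large subunit in spite of its name, whereas Mrps18b and Mrps18c are in the small one. The log2 fold changes were 0.10 ± 0.045 for Mrps18a (edgeR FDR = 0.143), 0.09 ± 0.042 for Mrps18b (edgeR FDR = 0.131) and 0.07 ± 0.045 for Mrps18c (edgeR FDR = 0.31), and none passed. Their levels differed, with 43 ± 2.44 FPKM for Mrps18a, 18.5 ± 1.17 FPKM for Mrps18b and 21.4 ± 1.43 FPKM for Mrps18c in LD mice. Mrps30, also of the large subunit despite its name, had 0.05 ± 0.068 (edgeR FDR = 0.623). Mrps36 is regarded today as a part of the oxoglutarate dehydrogenase complex and not of the ribosome, and it had 0.15 ± 0.065 (edgeR FDR = 0.124).

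There were 5 members that had a fitted log2 fold change below 0, and none of them passed the test. Mrpl1, of the stalk where used tRNAs leave, had the lowest value, with 5.8 ± 0.924 FPKM under LD (SD, n = 14) and 5.5 ± 0.721 FPKM under ADV (n = 16) and medians of 6.07 and 5.6 FPKM (-0.09 ± 0.075, edgeR FDR = 0.446, 95% interval -0.23 to 0.06). Mrpl50 (-0.05 ± 0.054), Mrps22 (-0.02 ± 0.06), Mrpl35 (-0.01 ± 0.046) and Mrps2 made up the rest. The groups overlapped almost wholly in these genes. The upper ends of their 95% intervals were 0.05 for Mrpl50, 0.10 for Mrps22 and 0.08 for Mrpl35. Intervals among the 19 that rose reached down to such values, as in Mrps5 (0.05 to 0.24). The intervals therefore do not set these genes apart from all of the 19.

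The members that rose had shorter transcripts in the median than the others. Of the 26 members under 1000 bases, 10 rose (median log2 fold change 0.154), of the 27 of 1000 to under 2000 bases 7 rose (median 0.11), and of the 25 of 2000 bases or more 2 rose, Mrps26 and Mrps5 (median 0.075). All genes tested showed the same order, with medians of 0.087, 0.047 and -0.022 and with 13.2%, 7.07% and 4.3% called higher in the same classes. In each class the median of the members lay above that of all genes. Across the 78 genes the log2 fold change had a Pearson correlation of -0.38 and a Spearman correlation of -0.37 with log2 transcript length, where all points share the same 30 libraries and genes are not independent replicates. The median length was 933 bases for the 19 that rose and 1417 bases for the others, and their median GC content was 55.4% and 48.4%. Transcripts of the mitochondrial ribosome are short as a group, with a median of 1272 bases against 2791 bases for all genes tested, while their GC content was like that of all genes (49.9% and 50.4%).

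When the trend of each library with transcript length was removed, 7 members remained higher (Mrpl43, Mrpl53, Mrpl4, Mrps34, Mrpl12, Mrps26 and Mrps5), where 4.25% of all genes tested were higher, and the median of the members was 0.067. With the trends of length and GC content removed together, 5 members were higher, against 2.49% of all genes, and the median was 0.063. Of these 5, Mrpl43, Mrps5 and Mrps28 were among the 19, and Mrpl17 and Mrps14 were not. With the GC trend alone removed 6 were higher, against 2.43% of all genes, and the median was 0.107, and 5 of these 6 were among the 19. Mrpl43 (edgeR FDR = 0.0256 and 0.0448) and Mrps5 (edgeR FDR = 0.0338 and 0.031) passed both with the length trend and with both trends removed. What part of the rise came with transcript length through the RNA or the library, and what part did not, cannot be told apart here.

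**Figure D4:**
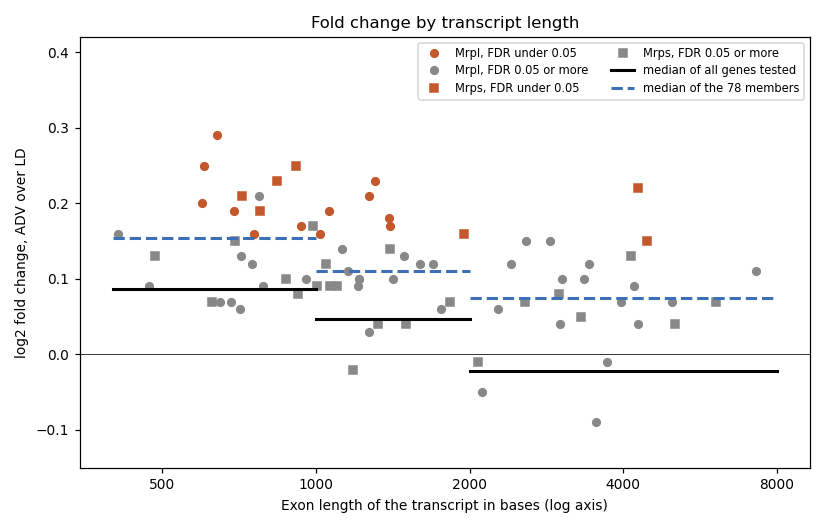
Log2 fold change of ADV over LD mice against exon length (log axis) for the 78 genes, Mrpl as circles and Mrps as squares, coloured where the FDR was under 0.05. Black bars give the median of all genes tested and dashed bars the median of the members in 3 length classes, and the dashed bars lie above the black bars in each class while both descend from left to right.

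The members rose and fell together from mouse to mouse. Within the groups the first principal component took 49.1% of the variance of the 78 genes, against 14.4% for all genes tested. Both values include ADV 34 and ADV 25, and no set of genes of like number, length or level was compared. Whether the members moved together more than such genes was not tested. For each library, the deviation of each member's log2 CPM from its mean over all libraries was taken and the median over the 78 computed. It ran from -0.194 to 0.067 in LD mice (median -0.048) and from -0.098 to 0.362 in ADV mice (median 0.024). The highest value, 0.362, was that of ADV 34, where 76 of the 78 were above their own mean. Next were ADV 31 (0.172, with 75 of 78) and ADV 25 (0.17, with 69 of 78), and the lowest were LD 23 (-0.194, with 6) and LD 28 (-0.167, with 4). ADV 34 had the highest FPKM of all 30 mice for 50 members. The members together held 0.2178 to 0.2777% of exon reads in LD mice (median 0.252%) and 0.2459 to 0.3284% in ADV mice (median 0.265%), and the groups overlapped.

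The share of reads on exons went with this deviation in some libraries and not in others, and their association was not tested. The share was lowest in LD 33 (90.908%), whose deviation was -0.161, and highest in ADV 34. LD 23, with the lowest deviation (-0.194), had a share of 91.18%. ADV 33 had the lowest share among ADV libraries (91.139%) and a deviation of -0.001. With this share as a covariate 0 members were higher and 0 lower, the median fell to 0.004 and 43 of 78 were above 0, where 0.266% of all genes tested were higher. At an unadjusted p under 0.05, 3 members were higher and 1 lower in that fit. The share was itself higher in ADV than in LD mice, so the part of the schedule and of the share in the rise cannot be told apart. Without ADV 25 and ADV 34, 12 members were higher, where 3.43% of all genes were, and the median was 0.081. The members that lost their call were Mrpl14, Mrpl2, Mrpl20, Mrpl28, Mrps26, Mrps5 and Mrps7, with an edgeR FDR of 0.0531 for Mrpl14, which had the largest rise, to 0.0935 for Mrps5. By class, 4 of 30 and 4 of 21 proteins of the large subunit (bacterial counterpart and mitochondria-specific) and 3 of 16 and 1 of 10 proteins of the small subunit were then higher. With these libraries left out and the length trend removed as well, 2 members were higher, Mrpl43 and Mrpl53, where 2.29% of all genes were higher. Their log2 fold changes were 0.12 and 0.09 in that fit.

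**Figure D5:**
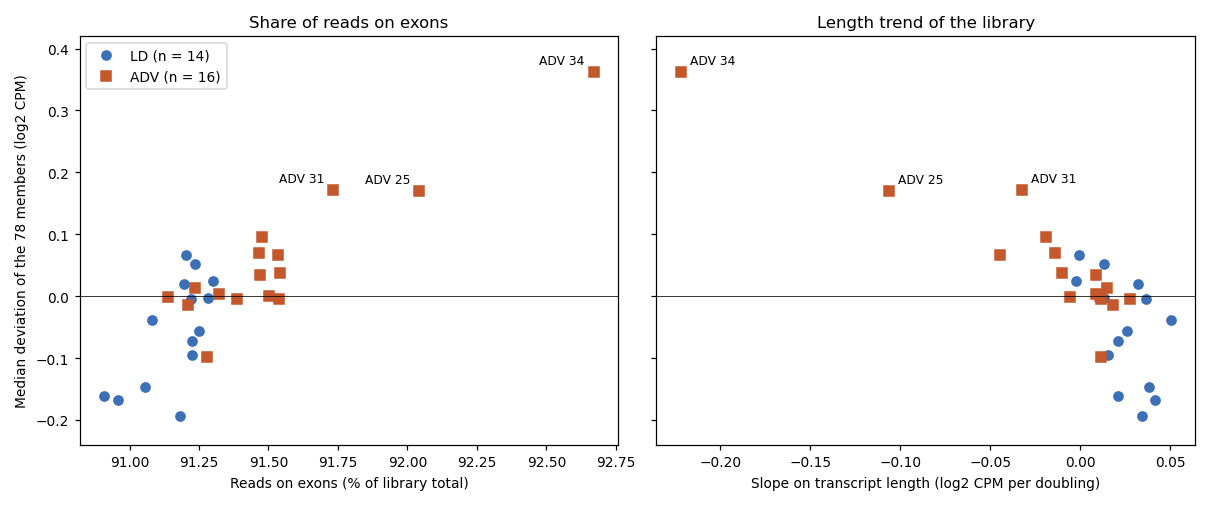
Median deviation of the 78 genes from their means over all libraries (log2 CPM) for each LD library (circles, n = 14) and ADV library (squares, n = 16), against the share of reads on exons on the left and the slope of the library on transcript length on the right. ADV 34 lies apart in both panels at 0.362, and the lowest libraries, between -0.194 and -0.147, are all LD.

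A score of clock gene levels, high when genes that peak with Bmal1 are high, was -3.184 to 1.114 in LD mice and -1.256 to 2.429 in ADV mice, with overlapping ranges. Its mean was -1.07 ± 1.24 (SD) in LD and 0.938 ± 0.795 in ADV mice. The clock genes in the score themselves differed between the groups. Of those that peak with Bmal1 3 of 5 tested were called higher in ADV mice, and of the opposite ones 7 of 8 lower. With this score as a covariate 0 members were called in either direction, 70 of 78 were above 0 and the median was 0.078, and 0% of all genes tested were called higher. At an unadjusted p under 0.05, 6 members were higher. The part of the schedule and of the score in the rise cannot be told apart, and nothing is read from this fit about the members. The part of the hour of death in the rise was not tested.

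Fiber type and other cells of the muscle were followed by marker genes beside these results. All 9 slow muscle markers had a log2 fold change above 0 (median 0.459) and none passed the test, and their summed level was 61.5 to 1190 FPKM in LD mice and 289 to 2370 FPKM in ADV mice. Of 6 Schwann cell markers 5 were tested, and these (24.3 to 46.3 and 26 to 80.7 FPKM summed) and the 7 adipocyte markers (177 to 375 and 189 to 693 FPKM) were all above 0, with Fabp4 the only one called. Higher at an unadjusted edgeR p under 0.05 were 4 of these 5 Schwann cell markers and 4 of the 7 adipocyte markers. Of 7 endothelial markers 5 were above 0, and Emcn and Pecam1 were called higher (all 7 summed, 61.9 to 85.7 and 73.7 to 95.4 FPKM). All 6 fibroblast markers were below 0 (median -0.117), and Pdgfra was called lower (all 6 summed, 278 to 378 and 241 to 401 FPKM). At an unadjusted edgeR p under 0.05, 3 of these 6 were lower. Of 6 leukocyte markers 4 were tested and 0 called (9.68 to 21.9 and 8.86 to 17.4 FPKM). Of these 4, 3 were below 0 (median -0.272), and 1 was lower at an unadjusted edgeR p under 0.05. ADV 24 had the highest sum of the slow muscle, adipocyte, endothelial, fibroblast and Schwann cell markers. Without it 17 members were higher, where 4.05% of all genes tested were. In a whole muscle, more cells or fibers of a type and more RNA per cell cannot be told apart, and the part of these markers in the rise was not tested.

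Other nuclear genes of mitochondrial translation were counted in the same fit. In 5 lists with 85 genes tested, edgeR called 10 higher (11.8%, beside 5.74% of all genes tested) and 0 lower (beside 5.12%), with a median log2 fold change of 0.042. DESeq2 called 11 higher and 1 lower, Gtpbp10 (-0.17, DESeq2 FDR = 0.0444). Of these 10, 6 were among the 29 genes that assemble the ribosome or modify its rRNA. Gtpbp6, a GTPase that acts late in the assembly of the large subunit, had 2.52, 3.08 and 3.95 FPKM in LD mice and 2.54, 3.78 and 4.97 FPKM in ADV mice (0.29 ± 0.072, edgeR FDR = 0.0118). The rRNA methyltransferase Mrm3 (0.24 ± 0.066, edgeR FDR = 0.0201), the pseudouridine synthase Trub2 (0.14, edgeR FDR = 0.0494) and Rcc1l (0.13, edgeR FDR = 0.0472) also rose. So did Afg3l2 (0.14, edgeR FDR = 0.0327) and Spg7 (0.13, edgeR FDR = 0.0439), whose protease matures a ribosomal protein. The counts of the next 3 lists, 1 of 19, 2 of 20 and 1 of 12, rest on few genes each, and nothing is read from them about the lists. Of 19 translation factors Tufm, the elongation factor that brings aminoacyl-tRNA, was the only one called (0.16 ± 0.045, edgeR FDR = 0.0261). Of 20 mitochondrial tRNA synthetases and related enzymes, Aars2 (0.20 ± 0.041, edgeR FDR = 0.00375) and Vars2 (0.15 ± 0.052, edgeR FDR = 0.0492) rose. Of 12 genes of mitochondrial transcription and RNA processing, the RNA polymerase Polrmt rose (0.16 ± 0.05, edgeR FDR = 0.0372), and Tfam, which packs mitochondrial DNA, did not pass (-0.04 ± 0.039, edgeR FDR = 0.54). Lrpprc, which stabilizes mitochondrial mRNAs, had 0.04 ± 0.059 (edgeR FDR = 0.706).

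Ribosomal proteins that carry other names were not called by edgeR. These 5 genes, Dap3, Ptcd3, Chchd1, Aurkaip1 and Gadd45gip1, had log2 fold changes from -0.01 to 0.21, and DESeq2 called 1 of them, Gadd45gip1 (0.21, DESeq2 FDR = 0.0435, edgeR FDR = 0.0573). Dap3, a GTP-binding protein of the small subunit, had 22.1, 24.6 and 30.2 FPKM in LD mice and 22.9, 24.8 and 29.4 FPKM in ADV mice (-0.01 ± 0.042, edgeR FDR = 0.885). The count of 10 in the 5 lists depended on single mice, since it was 4 without LD 28, 5 without ADV 24, ADV 25, ADV 34, LD 23, LD 27 or LD 30, and 6 without ADV 31, ADV 32 or LD 34. It was 3 without ADV 25 and ADV 34 together and 6 with the length trend removed. The share of all genes tested that were higher also moved, to 3.72% without LD 28, 3.43% without ADV 25 and ADV 34 and 4.25% with the length trend removed.

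The RNAs that the mitochondrial ribosome reads and contains did not pass edgeR's test without a correction for length or GC content. The 13 protein-coding genes of mitochondrial DNA had fitted log2 fold changes below 0, from -0.43 to -0.05 with a median of -0.165. With the GC trend removed 7 of the 13 were above 0 and the median was 0.012, and with both trends removed 4 were above 0. At an unadjusted p under 0.05, 1 of them was lower, mt-Nd6 (-0.27 ± 0.111, edgeR FDR = 0.101), which was called lower with the length trend removed (-0.36, edgeR FDR = 0.0421). The most abundant, mt-Co1, had 12600, 24500 and 30500 FPKM in LD mice and 15600, 21900 and 31800 FPKM in ADV mice (-0.07 ± 0.113, edgeR FDR = 0.693), and the groups overlapped almost wholly. The lowest fold changes, of mt-Atp8 (-0.43), mt-Atp6 (-0.42) and mt-Nd3 (-0.36), were those of genes measured at low levels, with means of 10.3, 14.1 and 9.09 FPKM in LD mice. Mitochondrial genes are known to have near-identical copies in the nuclear genome, and the part of these in the low levels was not tested. The rRNA of the small subunit, mt-Rnr1, had 0.33 ± 0.171 (edgeR FDR = 0.196) and that of the large subunit, mt-Rnr2, had 0.25 ± 0.141 (edgeR FDR = 0.229), in libraries selected for poly(A). With the GC trend removed both were called higher (mt-Rnr1 0.53, edgeR FDR = 0.048, and mt-Rnr2 0.46, edgeR FDR = 0.0277), and with both trends removed mt-Rnr2 was (0.42, edgeR FDR = 0.0459) and mt-Rnr1 was not (0.46, edgeR FDR = 0.0876).

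The promoter motifs shown above were set beside the rise as a description. Of the 19 members that rose, 9 (47.4%) had the ETS motif, and of the 59 that did not pass, 21 (35.6%) had it. The NRF1 motif was in 1 of the 19 (Mrps28) and in 7 of the 59, and the YY1 motif in 1 of the 19 and in 13 of the 59. The largest rise, that of Mrpl14, belonged to a gene with none of these motifs in the window.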

How the data were processed

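Muscle RNA of 14 LD and 16 ADV mice was sequenced, 1 library per mouse, and groups were taken from the labels. Samples are separate mice. The authors mapped the trimmed reads to GRCm39 with STAR 2.7.10a, removed reads with a mapping quality under 10 and counted reads on exons of UCSC canonical transcripts with HOMER 4.11, versions per the submitters' processing notes. The deposited raw values are estimated counts, since each mate counts as 0.5 read (14.8% were not whole), and they were rounded before testing. The FPKM values deposited by the authors equal the count per exon length and library total. Counting used the strand of the reads, because 19 transcripts antisense to genes above 300 FPKM had a median of 0.27% of the level that counting without strand would give them.

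For each symbol the longest row was kept that had, on average, more than 20 reads and more than 0.5 FPKM per library. The test was edgeR 4.0.16 in R 4.3.3 with TMM factors and the quasi-likelihood fit, over all 12030 genes, and the procedure was tested on simulated data. DESeq2 1.42.0, limma 3.58.1 on log2(FPKM + 0.1) and log2(FPKM + 1), other normalization (RLE, upper quartile, none), other filters, summed rows, the label number as a block, offsets for length and GC content (natural spline, 4 degrees of freedom), a clock score or the exon share as a covariate and leaving out each library were alternatives. Leaving out ADV 25 and ADV 34 together was chosen after seeing the data.

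The members and gene lists were chosen with earlier results of these data known. The genes named were those with an FDR under 0.05 (the 5 smallest FDRs in another list), the 3 largest rises and falls of each subunit, the extremes of level and length, and members of fixed role; genes named to complete a count of 6 or fewer, and Mrps14, Gtpbp10 and the genes of mitochondrial DNA, were chosen after their values were seen. Slc5a3 was named for its overlap with Mrps6. Promoter sequence and overlaps came from GRCm39 and GENCODE vM39. No 2 libraries of the same group agreed within sampling noise (smallest chi-square per degree of freedom 10.55), and pairs across the groups were not compared. Grip strength, histology and other tissues were not analysed here.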

Additional observations from a re-analysis of the deposited data

How the results depend on the processing

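Among the 78 genes none was called lower in ADV mice, at an FDR under 0.05, under any alternative run. With the exon share 43 of the 78 were above 0. At an unadjusted edgeR p under 0.05, 1 was lower in that fit, and 2 were lower with the length and GC trends removed. The number higher was 19, where 5.74% of all genes tested were higher. It stayed at 18 to 20 with DESeq2, limma, other size factors, library size alone, a stricter filter and summed rows. In those runs 4.97% to 7.97% of all genes were higher. The number of members was 9 with no filter on low genes, where 1.04% of 33970 genes tested were higher. It was 7 with the length trend removed (4.25% of all genes), 6 with the GC trend removed (2.43%) and 5 with both removed (2.49%). It was 12 without ADV 25 and ADV 34 (3.43% of all genes) and 2 without them and the length trend (2.29%). It was 0 with the exon share (0.266% of all genes) or the clock score (0%) as a covariate. The median log2 fold change of 0.106 was 0.004 with the exon share. Leaving out each library in turn gave 14 to 22 members and medians of 0.086 (without ADV 34) to 0.116. The lowest count, without LD 28, came where 3.72% of all genes were higher. The highest, without ADV 23, came where 6.51% were. Of the 19, the FDR of 5 passed 0.05 in some of these fits. These were Mrps26 without LD 28, Mrpl2 without LD 28 or LD 30, Mrps7 without ADV 25, ADV 28, LD 28 or LD 30, Mrpl20 without 6 libraries (ADV 24, 25 and 28, LD 27, 28 and 30; largest FDR 0.0586), and Mrps5 in 14 of the fits (largest FDR 0.072 without LD 28). With a replicate block of the label numbers over 28 libraries 7 members were higher, beside 2.4% of all genes tested. Without the block in the same libraries 9 were higher, beside 2.77%. Same-numbered mice deviated together with correlations of -0.275 to 0.438, so the numbers are not taken as pairs.

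The 10 genes of the 5 lists on mitochondrial translation became 0 with the GC trend, both trends, the exon share or the clock score, 6 with the length trend or upper quartile factors, 2 with no filter or with the replicate block, 3 in the 28 libraries without the block, 3 without ADV 25 and ADV 34 and 1 without them and the length trend. Leaving out 1 library gave 4 to 13. The share of all genes that were higher moved in these runs too, as given above with the members, and was 4.97% with upper quartile factors.

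Among the members named, signs turned for genes that were not called. Over all 78, 30 turned below 0 with the exon share, and 8 turned below 0 with the length trend and 8 with both trends removed. With the GC trend removed the log2 fold change was 0.02 for Mrpl1, 0.07 for Mrpl35, 0.05 for Mrpl50, 0.07 for Mrps2 and 0.03 for Mrps22. With both trends removed it was 0.02 for Mrpl1, 0.08 for Mrpl35, 0.02 for Mrpl50, 0.04 for Mrps2, -0.03 for Mrps18a and -0.005 for Mrps18b. With the length trend removed it was 0.01 for Mrpl35, -0.02 for Mrpl42 and -0.02 for Mrps18c. With the exon share it was -0.04 for Mrpl33, -0.05 for Mrpl42, -0.02 for Mrps18a, -0.04 for Mrps21 and -0.05 for Mrps25, and with the clock score -0.01 for Mrpl3. With the replicate block it was 0.002 for Mrpl35 and 0.004 for Mrps2. With limma it was 0.01 for both at either pseudocount. Mrps2 had 0.003 with library size alone, 0.0009 in the 28 libraries without the block and 0.01 without ADV 25 and ADV 34. Without those libraries and the length trend the values were -0.01 for Mrpl33, -0.03 for Mrpl42, -0.005 for Mrps18a, -0.01 for Mrps18c and -0.003 for Mrps21. Leaving out 1 library, Mrps2 ran from -0.03 to 0.02 and Mrpl35 from -0.03 to 0.01. The cause of these changes was not tested.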
